A study of Mus musculus with 16 samples.

Results

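A group of 10 genes of renal water and sodium transport was followed across the kidneys of Klotho mutant and control mice. They are the water channels Aqp1, Aqp2, Aqp3 and Aqp4, the vasopressin receptor Avpr2, the epithelial sodium channel subunits Scnn1a, Scnn1b and Scnn1g, the sodium pump regulator Fxyd4, and Hsd11b2, an enzyme that inactivates glucocorticoid. They were taken by gene name, and all 10 were found among the 30277 genes of the table. The study sequenced polyadenylated RNA of whole kidneys, frozen after perfusion, from 16 C57Bl/6J libraries in 4 groups of 4. Affected mice, called KlKl here, were homozygous for the recessive Kl allele (Kl/Kl) and are labelled as having renal disease. Controls carried at least 1 normal allele and are labelled healthy. Male controls 1 and 2 and all 4 female controls were heterozygous (+/Kl), and male controls 3 and 4 were wild type (+/+). Ages ran from 46 to 59 days. Male KlKl 4 was 59 days old, female control 3 was 57 and female KlKl 4 was 52, and the other 13 libraries were from mice of 46 to 49 days. The labels give replicate numbers but do not state that each library is a separate animal, so p-values measure the spread between these samples.

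Water leaves the tubule through aquaporins. AQP1 lies in both membranes of proximal tubule and thin descending limb cells and is also a major protein of red cells. In the principal cell of the collecting duct, vasopressin binds its V2 receptor, encoded by Avpr2, and cyclic AMP signalling sends AQP2 to the luminal membrane. Water that enters there leaves the cell through AQP3 and AQP4 on the opposite side. The same cell takes up sodium through the epithelial channel built of Scnn1a, Scnn1b and Scnn1g products under aldosterone, while HSD11B2 keeps glucocorticoid away from the aldosterone receptor.

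The stretches upstream of Aqp2, of the vasopressin receptor gene Avpr2, and of Aqp1 and Aqp3 are shown first, to set the 2 aquaporins of the principal cell beside the channel of the proximal tubule. RefSeq promoters of build GRCm38.p6 were matched by symbol for 7 of the 10 genes, and no entry was found for Aqp4, Scnn1a and Hsd11b2. The 4 printed are the 250 bases before the start of the gene, 5′ to 3′ on its own strand, with matches to the searched motifs in capitals.
Aqp2 (chr15:99578806-99579055, plus strand): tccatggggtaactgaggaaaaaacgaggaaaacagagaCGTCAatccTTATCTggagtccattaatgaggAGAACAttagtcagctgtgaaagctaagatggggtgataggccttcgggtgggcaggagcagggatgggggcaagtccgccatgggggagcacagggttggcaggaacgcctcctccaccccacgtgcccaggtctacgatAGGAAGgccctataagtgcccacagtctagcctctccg
Avpr2 (chrX:73891852-73892101, plus strand): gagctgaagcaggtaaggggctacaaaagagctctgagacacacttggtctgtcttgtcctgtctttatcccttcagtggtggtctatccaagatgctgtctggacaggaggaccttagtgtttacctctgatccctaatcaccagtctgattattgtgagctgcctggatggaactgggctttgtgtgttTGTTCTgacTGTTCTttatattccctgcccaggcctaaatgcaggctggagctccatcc
Aqp1 (chr6:55336049-55336298, plus strand): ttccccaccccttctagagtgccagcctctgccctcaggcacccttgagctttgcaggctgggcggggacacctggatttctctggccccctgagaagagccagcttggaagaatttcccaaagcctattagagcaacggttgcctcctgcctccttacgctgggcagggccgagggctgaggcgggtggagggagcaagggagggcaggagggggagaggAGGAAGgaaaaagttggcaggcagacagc
Aqp3 (chr4:41098184-41098433, minus strand): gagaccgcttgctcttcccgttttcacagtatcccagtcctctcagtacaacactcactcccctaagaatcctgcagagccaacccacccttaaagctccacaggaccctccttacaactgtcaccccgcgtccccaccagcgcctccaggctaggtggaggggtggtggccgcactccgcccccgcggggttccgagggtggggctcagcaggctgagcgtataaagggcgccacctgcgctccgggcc
The Aqp2 stretch held TGACG, a core of the cyclic AMP element, on the reverse strand, 211 to 207 bases before the start. It also held AGATAA (bound by transcription factors of the GATA family, reverse strand), AGAACA (a core of the steroid receptor element) and AGGAAG (an ETS factor motif, 38 to 33 bases before the start). The Avpr2 stretch held AGAACA on the reverse strand at 2 positions, 59 to 54 and 50 to 45 bases before the start. AGGAAG stood in Aqp1 and Scnn1b as well, and Aqp3, Fxyd4 and Scnn1g held no match. Both strands were searched, and TGACG lies inside the full element TGACGTCA and AGAACA is one side of the full palindromic steroid receptor element. Of 32851 mouse promoters of the same length, 17.8% held the core of the cyclic AMP element, 16.1% the core of the steroid receptor element, 9.99% the GATA family motif and 29.5% the ETS factor motif. TGGAAA, a motif of the osmotic factor NFAT5, stood in 18.6% of all promoters, TGACGTCA in 1.55% and the full steroid receptor element in 0.00913%. These last 3 were in none of the 7 promoters searched here.

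In build mm39 the genes lie as follows, from start to end. Aqp1 lies at chr6:55313417-55325541 (plus strand), Fxyd4 at chr6:117910520-117914654 (minus) and Scnn1a at chr6:125297622-125321907 (plus). Scnn1g (chr7:121333702-121367699) and Scnn1b (chr7:121464261-121517738) are neighbours on the plus strand. Aqp2 lies at chr15:99476936-99482429 (plus), Aqp3 at chr4:41092722-41098184 (minus), Aqp4 at chr18:15522553-15544040 (minus) and Hsd11b2 at chr8:106245387-106250621 (plus).

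The deposited unit is TPM, a length-scaled expression value, which here divides reads by the whole gene, introns included. Each library sums to the same total, of which mitochondrially encoded genes held 30.7% to 47.5%. The depth was 13026269 to 20103585 recovered reads in males and 8208543 to 14502861 in females. Kl was 10.2 ± 1.69 TPM in male controls and 0.943 ± 0.519 in male KlKl, and 3.39 ± 1.7 against 0.142 ± 0.079 in females (SD, n = 4 each), with no overlap within a sex. A second scaling, by the median ratio of each library to the others over measured genes, was computed beside the deposited one. The median log2(TPM + 1) difference over 8059 tested genes was 0.18 for KlKl against control in males, 0.10 in females, 0.26 between control males and control females and 0.33 between the KlKl sexes. A difference of a gene is read against that shift.

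Between genes, levels were compared as recovered reads per kilobase of exon, scaled to equal library size (RPKM over exons), since the deposited unit penalises long introns. On that scale Aqp2 averaged 327 over the 16 libraries and Aqp1 274, and the ranges of these 2 genes overlapped (127 to 596 and 121 to 548). Next came Hsd11b2 at 70.7, whose range of 48.1 to 89.5 lay below that of Aqp1. Aqp3 averaged 54.6, Fxyd4 20.4, Scnn1a 19, Scnn1b 14.1, Scnn1g 10.8, Aqp4 7.92 and Avpr2 7.64. Apart from Aqp1 and Hsd11b2, the ranges of all neighbours in this order overlapped. The order of the first 2 differed by sex. Aqp1 was above Aqp2 in the means of both male groups (332 against 235 in controls and 389 against 228 in KlKl) and below it in both female groups (173 against 378 and 203 against 468). Aqp2 was above Aqp1 in 7 of 16 libraries, and Scnn1b above Scnn1g in 14 of 16. Recovered reads per library ran from 182 for Avpr2 to 19509 for Aqp1.

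**Figure D1:**
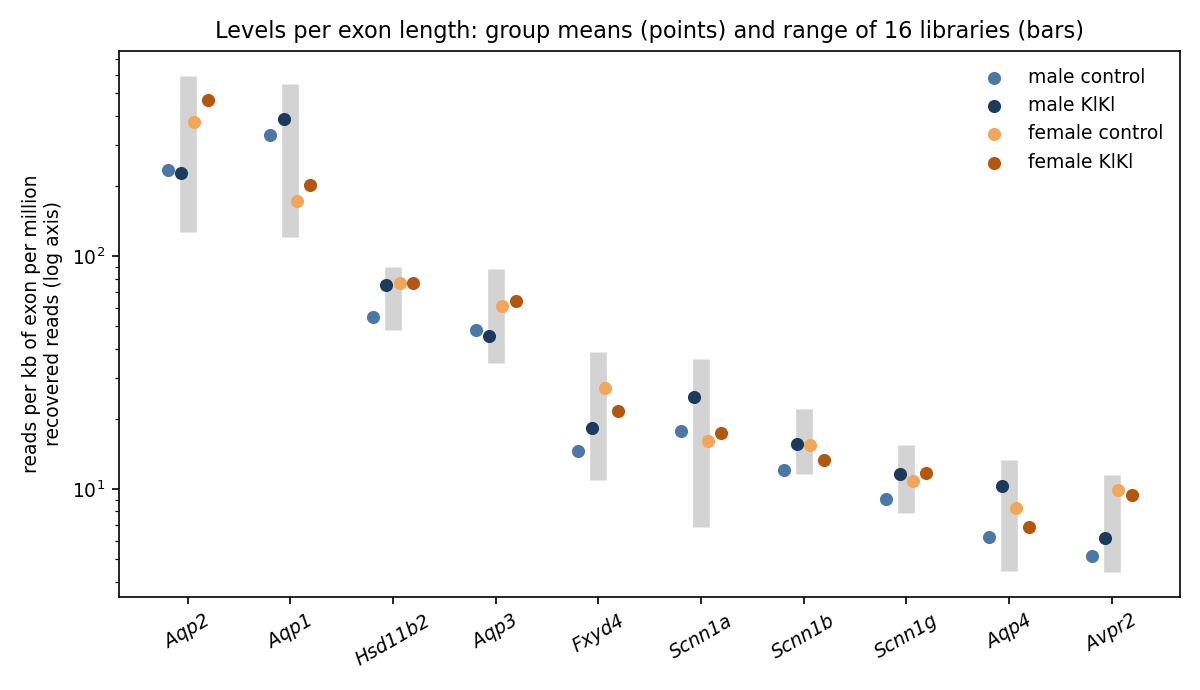
Levels per exon length of the 10 genes on a log axis, as group means of 4 libraries (points) with the range over all 16 libraries (grey bars). Aqp2 and Aqp1 stand above the other 8, and the 2 female groups lie above the 2 male groups for Aqp2 and below them for Aqp1.

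No gene of the 10 passed the test between KlKl and control kidneys in either sex. The test was limma on log2(TPM + 1), adjusted by the Benjamini-Hochberg method over the 8059 genes with 1 TPM or more in at least 4 libraries, with a threshold of 0.05. Of those genes 8 (0.0993%) passed in males, 1 (0.0124%) in females, 3 (0.0372%) for the mean of both sexes and 0 for the difference between the sexes (175 genes had an unadjusted p under 0.05). Of the 10 genes 8 passed the filter on low values. Scnn1b, at 1 TPM in 1 library, and Scnn1g, in 3, did not pass it, and their statistics come from the same fit over 27648 genes without the filter. Of these 8, 3 had an unadjusted p under 0.05 in males, against 1603 of 8059 genes (19.9%), and 0 in females, against 376 (4.67%). For the mean of both sexes 2 of the 8 had an unadjusted p under 0.05, against 2121 genes (26.3%), and for the difference between the sexes 2 of 8, against 2.17%. On recovered reads limma voom tested all 10 genes and called 0 in each of these 4 comparisons, where 0.034%, 0.0113%, 0.0227% and 0% of 17648 genes passed (440 had an unadjusted p under 0.05 for the difference between the sexes).

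Aqp2, the channel that vasopressin brings to the luminal membrane, did not separate the genotypes in either sex. It stood at 32.3, 40, 64.2 and 80.5 TPM in male controls 1 to 4 and at 55.7, 72.1, 74.4 and 29.8 in male KlKl 1 to 4. In females it stood at 91.1, 79.9, 24.4 and 78 in controls and at 98.4, 99, 115 and 43.1 in KlKl. Both sexes overlapped between genotypes, and the lowest library of 3 of the 4 groups was the oldest of its group. The log2 difference was 0.10 in males (95% interval -0.82 to 1.02, adjusted p = 0.874) and 0.44 in females (-0.48 to 1.36, adjusted p = 0.746). The female value was 0.01 without female control 3 and 0.76 without female KlKl 4. Scaled by the median ratio, the male difference was -0.14.

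Aqp3, the basolateral exit channel, stood at 9.98, 9.7, 17.2 and 20.8 TPM in male controls and at 15.6, 16.7, 16.9 and 10.5 in male KlKl. Female controls stood at 18.9, 14.3, 8.16 and 15.7 and female KlKl at 15.3, 15.4, 22.1 and 10.0. The low libraries were those low in Aqp2. Its log2 difference was 0.10 in males and 0.14 in females (adjusted p = 0.823 and 0.869), and -0.14 and 0.01 after scaling.

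Aqp4, the other basolateral channel, stood at 1.11, 1.07, 2.27 and 2.02 TPM in male controls and at 2.56, 2.07, 3.43 and 3.51 in male KlKl. Only male KlKl 2 lay inside the control range. In females Aqp4 stood at 1.99, 1.87, 1.75 and 1.15 in controls and at 1.57, 1.73, 1.25 and 1.26 in KlKl, which overlapped. The log2 difference was 0.59 in males (SE 0.17, 95% interval 0.23 to 0.94, unadjusted p = 0.00283, adjusted p = 0.201) and -0.13 in females (SE 0.17, adjusted p = 0.788). The difference between the sexes was 0.71 (SE 0.23, unadjusted p = 0.00794, adjusted p = 0.9997). After scaling, the male difference of Aqp4 was 0.41 (adjusted p = 0.871).

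In this bulk tissue, fewer cells of a type and less RNA per cell cannot be told apart. Aqp1, the channel of proximal tubule and thin limb, stood at 54.4, 54.1, 73.1 and 73.9 TPM in male controls and at 72, 71.6, 117 and 69.9 in male KlKl. Female controls stood at 39.3, 27.3, 21.5 and 17.3 and female KlKl at 33.7, 27, 36.7 and 30.9. Genotypes overlapped in both sexes, with log2 differences of 0.35 in males and 0.33 in females (adjusted p = 0.346 and 0.727). The male value of Aqp1 was 0.17 without male KlKl 3, and the female value was 0.16 without female control 4 and 0.54 without female control 1. After scaling, with all libraries, the Aqp1 differences were 0.10 in males and 0.19 in females. Male KlKl 3 was the highest library for Aqp1. The summed TPM of 5 red cell genes, globins and Alas2, was 96 to 479 in KlKl males against 11 to 142 in control males, and 16.5 to 58.1 against 3.31 to 114 in females, and its part in the Aqp1 values was not tested.

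The vasopressin receptor Avpr2 stood at 3.18, 4.14, 3.89 and 4.22 TPM in male controls and at 6.47, 3.95, 4.93 and 5.24 in male KlKl. Female controls stood at 6.98, 6.98, 4.47 and 4.97 and female KlKl at 6.38, 6.4, 6.32 and 4.27. Genotypes overlapped in both sexes. The log2 difference was 0.33 in males (95% interval -0.01 to 0.67, adjusted p = 0.259) and 0.00 in females (-0.34 to 0.34, adjusted p = 0.994).

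The 3 channel subunits did not overlap between male KlKl and male controls on the deposited scale. Scnn1a, the subunit that the channel needs to conduct, stood at 2.55, 3.02, 2.69 and 2.28 TPM in male controls and at 3.43, 3.36, 6.04 and 3.69 in male KlKl. Scnn1b stood at 0.501 to 0.546 TPM in male controls and at 0.68, 0.657, 1.02 and 0.659 in male KlKl. Scnn1g stood at 0.642, 0.696, 0.673 and 0.8 in male controls and at 1.22, 0.813, 1.02 and 0.97 in male KlKl. The ratios of the means were 1.57, 1.44 and 1.43. Over all tested genes, which do not include Scnn1b and Scnn1g, 11.6% were higher in male KlKl with no overlap on this scale.

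None of the 3 subunits passed the test in males. Log2 differences were 0.47 for Scnn1a (SE 0.20, adjusted p = 0.235), 0.20 for Scnn1b (SE 0.07, adjusted p = 0.26) and 0.23 for Scnn1g (SE 0.08, adjusted p = 0.257), where the added 1 shrinks the differences of the low subunits. After median-ratio scaling all 3 overlapped, with ratios of 1.31, 1.21 and 1.2, and 2.11% of the tested genes were higher without overlap. Female Scnn1a stood at 2.35, 2.03, 0.8 and 2.42 TPM in controls and at 1.72, 1.73, 2.39 and 2.76 in KlKl. In females the ratios were 1.13, 0.899 and 1.14 on the deposited scale, with overlap for each. Female control 3 was the lowest of all 16 libraries for Scnn1a (0.8 TPM) and Scnn1g (0.476) and near the top for Scnn1b (0.742).

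Hsd11b2, which shields the mineralocorticoid receptor, stood at 14.4, 15.4, 20.6 and 17.7 TPM in male controls and at 28.5, 19, 30.9 and 25.1 in male KlKl. Only male KlKl 2 lay within the control range. Female controls stood at 21.2, 18.6, 17.4 and 17.6 and female KlKl at 19.1, 18.2, 23 and 18.6, which overlapped. The log2 difference of Hsd11b2 was 0.57 in males (SE 0.15, 95% interval 0.24 to 0.90, unadjusted p = 0.00209, adjusted p = 0.186) and 0.07 in females (SE 0.15, adjusted p = 0.88). After scaling the male value was 0.33 (adjusted p = 0.871). With age as a covariate it was 0.61 and passed (adjusted p = 0.0407), in a fit that called 909 of 8059 genes (11.3%). With age on scaled values 1 gene of 8059 passed in males, and it was none of the 10.

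Fxyd4, which modulates the sodium pump of principal cells, stood at 5.67, 4.31, 8.52 and 5.95 TPM in male controls and at 8.63, 5.39, 11.2 and 8.63 in male KlKl. Female controls stood at 7.88, 8.35, 12.5 and 6.9 and female KlKl at 7.3, 7.9, 7.55 and 6.94. All groups overlapped between genotypes. The log2 difference of Fxyd4 was 0.41 in males and -0.21 in females (adjusted p = 0.273 and 0.749).

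**Figure D2:**
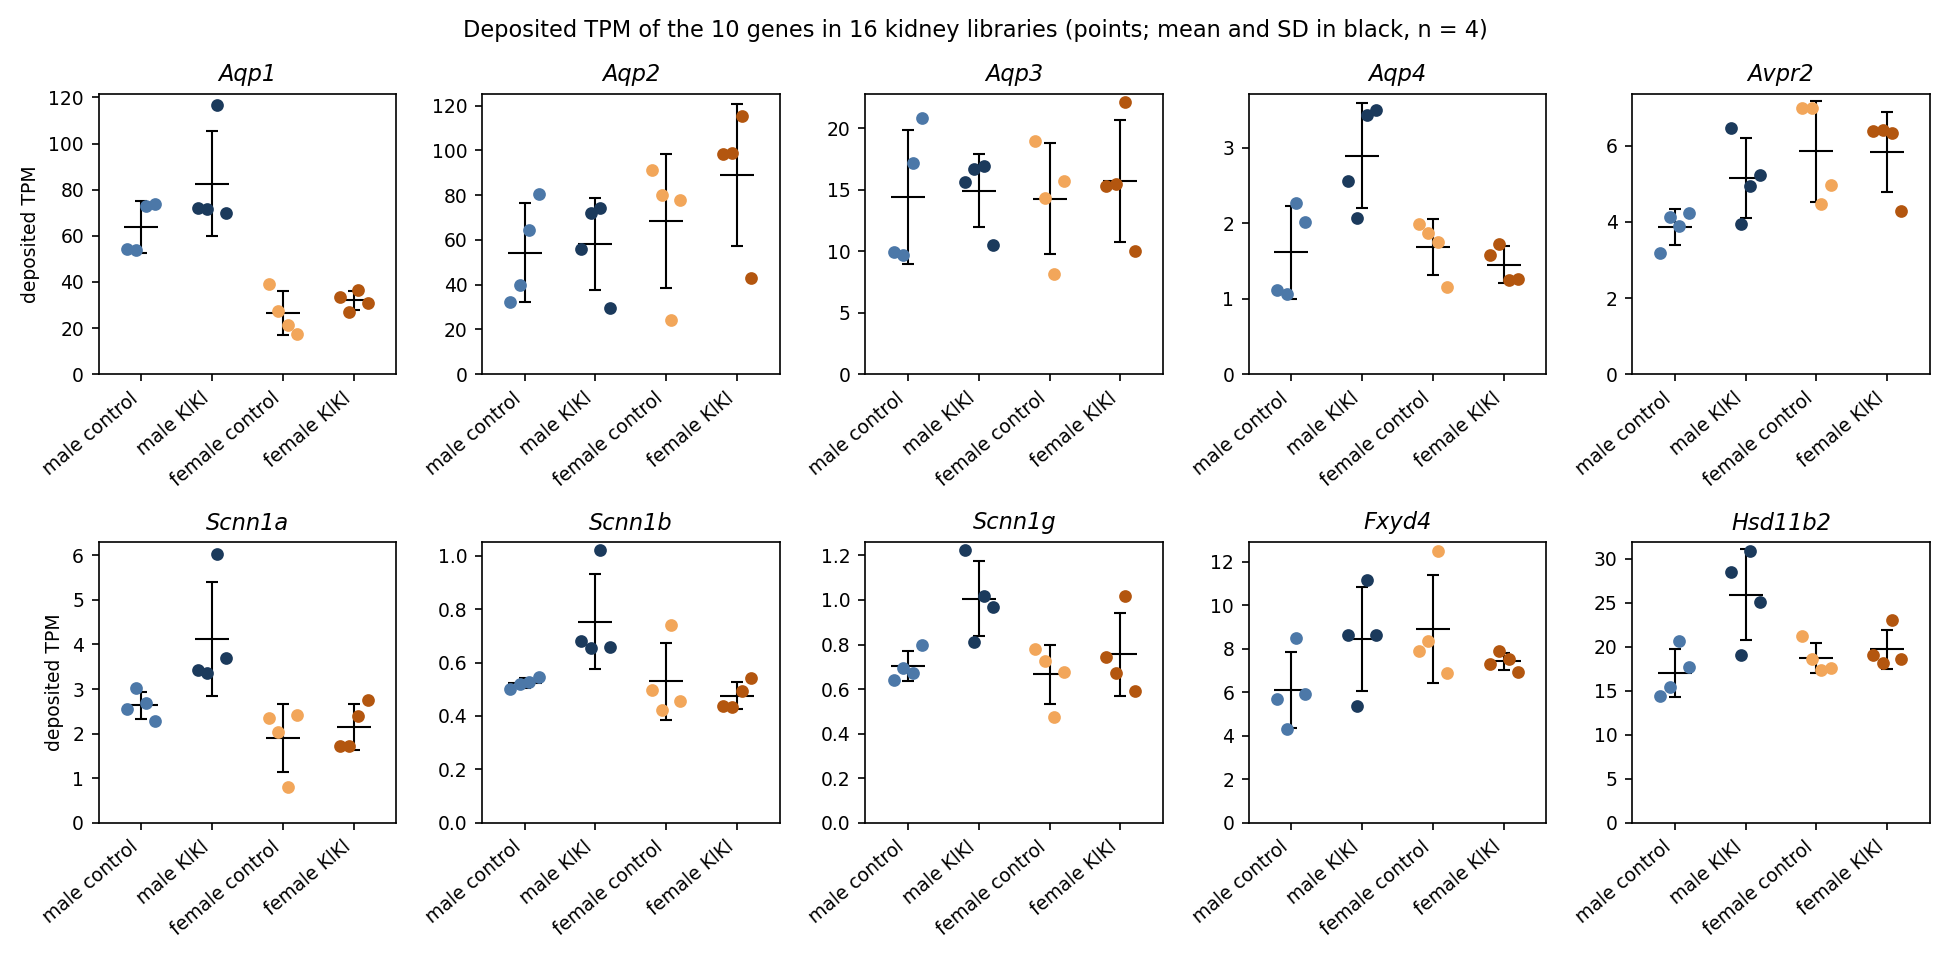
Deposited TPM of each gene in every library (points) by group, with the mean and SD of 4 libraries in black, each axis starting at 0. The male KlKl points lie above all male control points for Scnn1a, Scnn1b and Scnn1g, and the male and female points are separate for Aqp1.

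Within male controls the 2 heterozygous libraries were below the 2 wild-type libraries for 7 of the 10 genes as deposited, the 4 aquaporins, Fxyd4 (5.67 and 4.31 against 8.52 and 5.95 TPM), Hsd11b2 (14.4 and 15.4 against 20.6 and 17.7) and Scnn1b (0.501 and 0.519 against 0.527 and 0.546). Of all tested genes, which do not include Scnn1b, 55.1% had that order and 4.79% the opposite one. After scaling the 4 aquaporins kept it, Fxyd4 and Hsd11b2 overlapped, and Scnn1a and Scnn1b were higher in the heterozygotes, against 22.9% and 19.9% of all genes. Aqp2 was 32.3 and 40 TPM in heterozygotes against 64.2 and 80.5 in wild types, Aqp3 was 9.98 and 9.7 against 17.2 and 20.8, and Aqp4 was 1.11 and 1.07 against 2.27 and 2.02. Aqp1 had the same order (54.4 and 54.1 against 73.1 and 73.9). The heterozygotes carry library names of the series CFK and the wild types of the series CFdk, so genotype and name series cannot be told apart here, and with 2 libraries each no test was made. Within the CFK names the male KlKl difference of Aqp2 was 0.80 on the log2 scale, and within the CFdk names it was -0.60. The corresponding Aqp3 values were 0.66 and -0.47, while Aqp4 was 0.66 and 0.51 and Hsd11b2 0.61 and 0.52.

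Some of these genes passed between the sexes, where none passed between genotypes. Counting both directions, their share was near or below that of all tested genes. On the deposited scale 2 of the 8 tested genes passed between control males and females, 1 higher and 1 lower in males, against 52.6% of all 8059 genes (3567, or 44.3%, higher in males and 669, or 8.3%, lower). In KlKl kidneys 3 of 8 passed, all higher in males, against 54.7% (4106, or 50.9%, higher and 300, or 3.72%, lower). After median-ratio scaling 4 of 8 passed in controls, 1 higher and 3 lower, against 49.7% (2502 higher, 31%, and 1504 lower, 18.7%), and 2 in KlKl, 1 higher and 1 lower, against 38.1% (1958 higher, 24.3%, and 1113 lower, 13.8%). The median log2 difference of the 8 genes was -0.10 in controls and 0.25 in KlKl as deposited, against 0.26 and 0.33 for all genes. Male libraries were deeper in most cases, and the sample numbers 17 to 24 in the column names recur in each sex. Their part in the differences between the sexes was not tested.

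Aqp1 was higher in males in both genotypes, with no overlap. Of all tested genes 41.3% were higher in control males and 47.2% in KlKl males without overlap as deposited, and 28.3% and 26.2% after scaling. The log2 difference was 1.29 in controls (SE 0.23, adjusted p = 0.000331) and 1.31 in KlKl (SE 0.23, adjusted p = 0.000295), or ratios of mean TPM of 2.42 and 2.57. After scaling the ratios of Aqp1 were 2 and 1.95 (adjusted p = 0.000689 and 0.00231), and on recovered reads it passed in both genotypes as well. Within the CFK names the deposited control difference of Aqp1 was 0.71 and within the CFdk names 1.87, and in KlKl they were 1.22 and 1.40. Of 9 proximal tubule markers, such as Lrp2 and Slc34a1, 6 were higher in control males and 0 lower on the deposited scale, against 44.3% and 8.3% of all genes, and 4 and 0 after scaling, against 31% and 18.7%. In KlKl 5 were higher in males and 0 lower as deposited, against 50.9% and 3.72%. After scaling 3 were higher and 1 lower, against 24.3% and 13.8%. The summed TPM of the 9 markers was 760 to 1067 in male and 374 to 1036 in female controls. In KlKl it was 622 to 1119 in males and 879 to 1032 in females, with means of 883 and 935. The part of these markers in the Aqp1 difference was not tested.

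Avpr2 was lower in control males than in control females, with no overlap. The log2 difference was -0.48 (SE 0.16, adjusted p = 0.0197), a ratio of 0.659, and -0.72 after scaling (SE 0.13, adjusted p = 0.000356). Over all tested genes 7.3% were lower in control males with no overlap on the deposited scale and 15.9% after scaling, and 2.59% and 14.5% in KlKl males. In KlKl the difference of Avpr2 was -0.16 on the deposited scale (adjusted p = 0.426), with overlap, and -0.48 after scaling (adjusted p = 0.00816), without overlap. With heterozygous controls alone the deposited control difference was -0.54 and did not pass (adjusted p = 0.066). The deposited call was also lost without male control 1 (-0.41, adjusted p = 0.0616), female control 1 (-0.40, adjusted p = 0.0569) or female control 2 (-0.40, adjusted p = 0.0621). Within the CFK and CFdk names the Avpr2 difference in controls was -0.78 and -0.18 as deposited and -0.88 and -0.57 after scaling. Avpr2 lies at chrX:72935708-72939109 (plus strand), and the other 9 genes lie on autosomes.

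Fxyd4 and Hsd11b2 were lower in control males on scaled values and on recovered reads, but did not pass as deposited. Fxyd4 differed by -0.48 as deposited (adjusted p = 0.0617) and by -0.74 after scaling (SE 0.20, adjusted p = 0.00706). Hsd11b2 differed by -0.14 as deposited (adjusted p = 0.468) and by -0.41 after scaling (SE 0.12, adjusted p = 0.0125). On recovered reads, where 39.6% of genes passed in controls and 28.5% in KlKl, both passed in controls, with log2 differences of -0.89 and -0.50 (adjusted p = 0.00381 and 0.00387). With heterozygous controls only, the deposited Fxyd4 difference was -0.70 and passed (adjusted p = 0.0419). It also passed with name series as a covariate (-0.48, adjusted p = 0.0462) and without male control 3 (-0.63, adjusted p = 0.0231), female control 4 (-0.58, adjusted p = 0.0429), male KlKl 2 or male KlKl 3 (-0.48 each, adjusted p = 0.0386 and 0.0474). In KlKl neither gene passed on either scale with all libraries and no covariate. The deposited Hsd11b2 difference there was 0.36 (adjusted p = 0.0584) and passed without male KlKl 2 (0.50, adjusted p = 0.0115), without female KlKl 3 (0.43, adjusted p = 0.0397) or with age as a covariate (0.39, adjusted p = 0.0413), and was -0.02 after scaling.

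Aqp4 and 2 of the 3 sodium channel subunits, Scnn1a and Scnn1b, were higher in KlKl males than in KlKl females on the deposited scale and did not pass after scaling or on recovered reads. Aqp4 differed by 0.65 (SE 0.17, adjusted p = 0.00389) and Scnn1a by 0.69 (SE 0.20, adjusted p = 0.00822), both without overlap. Of all tested genes 47.2% were higher in KlKl males without overlap on this scale. After scaling Aqp4 and Scnn1a overlapped, and 26.2% of genes were higher without overlap. Scnn1b differed by 0.24 (SE 0.07, adjusted p = 0.0213) in the fit without the filter, which called 28.3% of its 27648 genes. It did not pass with the libraries of the contrast only (0.24, adjusted p = 0.0563). Nor did it pass without male KlKl 3 (0.17, adjusted p = 0.052), female KlKl 1 or female KlKl 2 (0.23 each, adjusted p = 0.053 and 0.0593). The third subunit, Scnn1g, differed by 0.19 (adjusted p = 0.0999), with overlap. It passed with age as a covariate (0.22, adjusted p = 0.0471) and without female KlKl 3 (0.26, adjusted p = 0.0254). After scaling the differences of Aqp4, Scnn1a and Scnn1b were 0.38, 0.38 and 0.09 (adjusted p = 0.0654, 0.166 and 0.503). Aqp2 had the opposite sign, at -0.60 as deposited (adjusted p = 0.25) and -0.99 after scaling (adjusted p = 0.0618), and passed on recovered reads (-1.09, adjusted p = 0.0372).

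**Figure D3:**
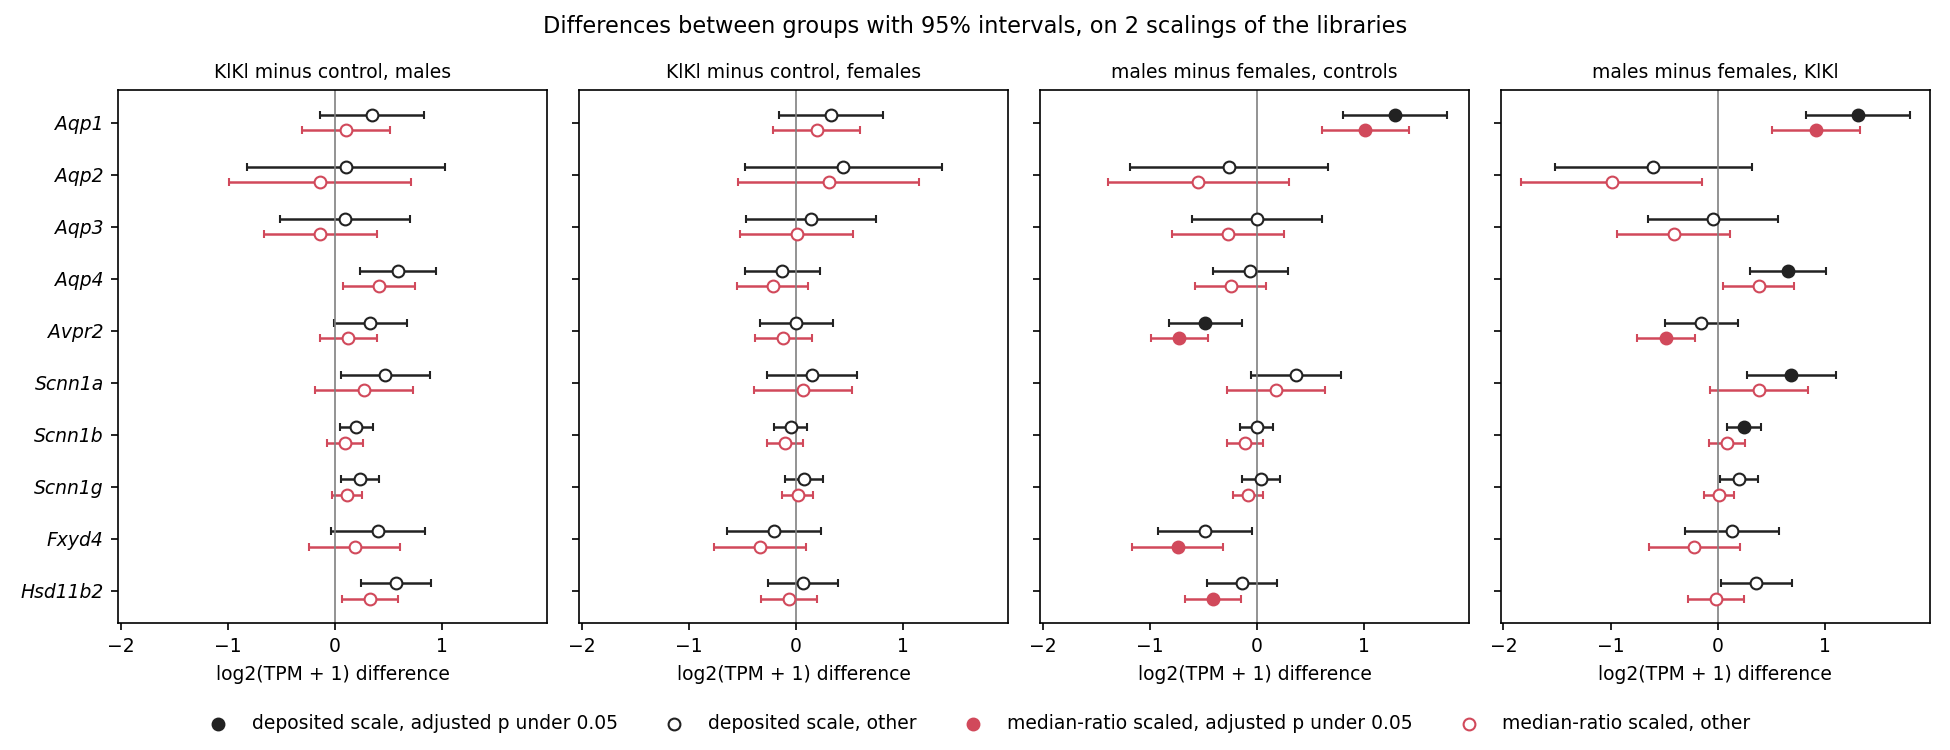
Differences of log2(TPM + 1) with 95% intervals in 4 comparisons, on the deposited scale (black) and after median-ratio scaling (red), filled where the adjusted p was under 0.05. No point is filled for KlKl against control, and Aqp1 is filled on both scales in both comparisons of the sexes.

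Aqp2 and Aqp3 varied together from library to library. On scaled values Pearson's r was 0.92 and Spearman's rho 0.94 over 16 libraries (permutation p = 1e-05 for both, the smallest that 100000 permutations give, adjusted over 45 pairs 0.00045). Without male KlKl 4 and female control 3 r was 0.90. It was 0.92 in the 8 male and 0.90 in the 8 female libraries, and 0.93 and 0.97 within the CFK and CFdk names. On the deposited scale r was 0.89 and rho 0.69. For deviations of the scaled values from the group means r was 0.92. Aqp2 spanned 24.4 to 115 TPM and Aqp3 8.16 to 22.1 TPM over the 16 libraries.

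Of the 45 pairs 3 had an adjusted p under 0.05, and the median r was 0.09. Aqp1 and Avpr2 had r of -0.77 and rho of -0.72 (permutation p = 0.00068 and 0.00209, adjusted p = 0.0153 and 0.047), but r was -0.14 within males and 0.17 within females, so the relation did not hold within a sex. It was -0.77 without male KlKl 3 and female control 4, and -0.85 and -0.86 within the 2 name series, each of which holds both sexes. Fxyd4 and Hsd11b2 had r of 0.71 and rho of 0.62 (permutation p = 0.0014 and 0.0124, adjusted p = 0.021 and 0.111), with 0.83 in males and 0.10 in females. Without male control 2 and female control 3 their r was 0.81, and it was 0.79 and 0.50 within the CFK and CFdk names. The channel subunits Scnn1a and Scnn1b had r of 0.05 and rho of 0.61 over all libraries, r of 0.91 without male KlKl 3 and female control 3, and 0.95 in males against -0.39 in females, 0.88 within CFK and -0.18 within CFdk names (permutation p = 0.856 and 0.0142 over all libraries, adjusted p = 0.917 and 0.111).

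**Figure D4:**
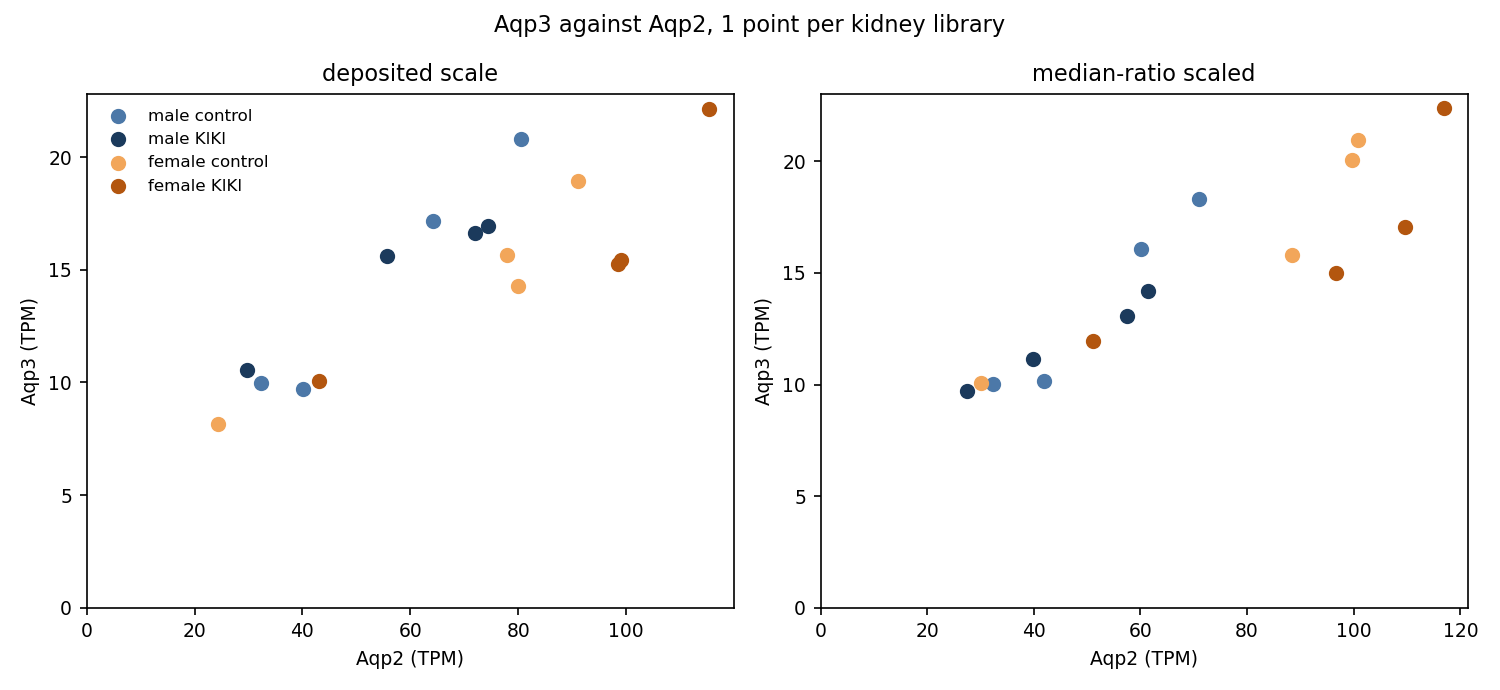
TPM of Aqp3 against Aqp2 with 1 point per library, on the deposited scale (left) and after median-ratio scaling (right). Over the 16 points r was 0.89 and 0.92 on the log2(TPM + 1) scale, but the sexes were offset. Mean deposited Aqp2 was 54.2 and 58 TPM in control and KlKl males and 68.4 and 89 in females. Mean Aqp3, in the same order, was 14.4, 14.9, 14.3 and 15.7.

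The tested genes were ranked by likeness to Aqp2, leaving out pseudogenes, genes without a name and genes with Gm or Rik names. Of the 6110 genes compared, the 5 most like Aqp2 over the 16 libraries, by r of log2(TPM + 1) on the deposited scale, were Eva1b (0.92), Aqp3 (0.89), Nccrp1 (0.88), Ak1 (0.86) and Abhd8 (0.85). Avpr2 ranked 398 with r of 0.56, Hsd11b2 1889 with 0.21, and Fxyd4 4187 with -0.08. These values describe the libraries, which share depth and scaling. Age was compared with each of the 10 genes on scaled values. Aqp2 had r of -0.58 and rho of -0.23 with age (permutation p = 0.0126 and 0.397, adjusted over 10 genes 0.126 and 0.929), and r was -0.05 without the 2 oldest, male KlKl 4 and female control 3, so it rests on those libraries.

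No other gene of the pathway lists passed between genotypes. Of 8 other aquaporins 7 were in the table and 3 tested, Aqp6, Aqp11 and Aqp7. Aqp6, a channel of intercalated cells, stood at 8.98 ± 2.46 TPM in male controls and 12.1 ± 2.52 in male KlKl, and at 6.19 ± 0.38 and 7.82 ± 1.27 in females (SD, n = 4 each). All 3 were higher in control males on the deposited scale, Aqp11 by 0.43 (adjusted p = 0.00185), Aqp6 by 0.44 (adjusted p = 0.0358) and Aqp7 by 0.32 (adjusted p = 0.0347). Over all tested genes 44.3% were called higher in control males on that scale. After scaling only Aqp11, a channel of intracellular membranes, passed (0.22, adjusted p = 0.046), where 31% of all genes were called higher.

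Of 24 genes of vasopressin signalling and urea transport 11 were tested, and 0 passed between genotypes in either sex or in the mean of both. Their median log2 difference was 0.18 in males and 0.10 in females, as over all genes. Adcy6, an adenylyl cyclase of the principal cell, stood at 3.87 ± 0.371 TPM in male controls and 5.66 ± 1.62 in male KlKl, and at 3.26 ± 1.19 and 4.2 ± 0.615 in females. Its mean log2 difference was 0.38 (adjusted p = 0.167). Vamp2, a vesicle fusion protein, stood at 11.9 and 16.3 TPM in control and KlKl males and at 10.5 and 11.7 in females, and Prkar1a, in the same order, at 8.51, 10.1, 7.25 and 7.78. Gnas, the stimulatory G protein, stood at 6.56, 7.66, 5.97 and 6.23, Arrb2 at 0.979, 1.35, 1.3 and 1.63, and Prkar2a at 1, 1.28, 1.11 and 1.22. In the sexes 2 passed, both higher in males of both genotypes, the kinase anchor Akap11 (0.50 in controls and 0.53 in KlKl) and the kinase subunit Prkaca (0.46 and 0.45). Of all tested genes 44.3% were called higher in control males and 50.9% in KlKl males. Akap11 also passed after scaling in both (adjusted p = 0.000302 and 0.00155), and Prkaca in controls (adjusted p = 0.0155). After scaling the list had 2 higher and 3 lower in control males, and 1 and 2 in KlKl males. The scaled shares of all genes, against which the scaled lists below are also read, were 31% higher and 18.7% lower in control males. In KlKl males they were 24.3% and 13.8%.

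Of 25 genes of the mineralocorticoid receptor and sodium channel regulation 14 were tested and 0 passed between genotypes. Their median difference was 0.33 in males and 0.10 in females, against 0.18 and 0.10 over all tested genes. After scaling the medians of the list were 0.15 and 0.02. Wnk1 and Wnk4, kinases of distal salt transport, stood at 2.4 ± 0.179 and 6.65 ± 0.386 TPM in male controls and at 3.34 ± 0.306 and 10.4 ± 3.15 in male KlKl (adjusted p = 0.147 and 0.192). Usp2, a deubiquitinase, stood at 5.13 ± 0.725 and 8.49 ± 1.66 (adjusted p = 0.219). The channel-activating protease Prss8 stood at 66.3 and 74.4 TPM in control and KlKl males and at 49.6 and 49.3 in females, and its inhibitor Spint2 at 7.46, 9.98, 7.77 and 9.38. Between the sexes 4 of the 14 passed in controls, all higher in males, where 44.3% of all tested genes were called higher. These 4 were Furin, a protease that cleaves the channel (1.10, adjusted p = 2.01e-05), Cul3 (0.46), Hsd11b1 (0.89) and Prss8 (0.41). Furin, Cul3 and Hsd11b1 also passed after scaling, Prss8 did not (adjusted p = 0.315). In KlKl 7 of the 14 passed, all higher in males, where 50.9% of all tested genes were called higher. Among the 7 were Furin (1.22), Cul3 (0.46), Wnk1 (0.40) and Wnk4 (0.64), of which Furin and Cul3 passed after scaling. The scaled list had 3 higher and 3 lower in control males, and 2 and 0 in KlKl males.

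Of 13 genes of the sodium pump and potassium channels 7 were tested, with 0 called between genotypes and medians of 0.27 in males and 0.02 in females. Over all tested genes the medians were 0.18 and 0.10. After scaling those of the list were 0.05 and -0.05. Atp1b1, a beta subunit of the pump, stood at 95.2 ± 12.6 TPM in control males and 122 ± 11.3 in KlKl males, and at 60 ± 14.7 and 72.4 ± 13.7 in females (SD, n = 4 each). Fxyd2, a pump regulator of other segments, stood at 141 and 149 TPM in control and KlKl males and at 120 and 132 in females. In the same order Kcnk1, a potassium channel, stood at 1.08, 1.93, 2.24 and 2.12, and Kcnj10 at 1.22, 1.69, 0.82 and 0.83. Kcnk1 was lower in control males than females (-0.62 as deposited and -0.82 after scaling, adjusted p = 0.00133 and 7.3e-05). Kcnj16 (0.77) and Atp1b1 (0.68) were higher in control males, also after scaling. In KlKl 5 of the 7 passed, all higher in males, where 50.9% of all tested genes were called higher. Among the 5 were Kcnj16 (1.04), Kcnj10 (0.55) and Atp1b1 (0.76), of which the 2 Kcnj genes also passed after scaling. The scaled list had 2 higher and 1 lower in males of each genotype.

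Of 9 osmotic response genes 6 were tested and 0 passed between genotypes, with medians of 0.41 in males and 0.11 in females. Over all tested genes the medians were 0.18 and 0.10. After scaling those of the list were 0.19 and 0.03. Slc5a3, the inositol transporter, stood at 4.99 ± 0.776 TPM in control males and 8.29 ± 2.58 in KlKl males, and at 5.56 ± 0.714 and 5.66 ± 0.729 in females. Slc6a6, the taurine transporter, stood at 3.54, 5.02, 2.23 and 2.45 in the same order. The heat shock genes Hspa1a and Hspa1b stood at 6.69 and 12.2 in male controls and at 9.79 and 18.6 in male KlKl, and at 5.38 and 15.2 against 7.47 and 19.3 in females. Slc6a6 (0.50 and 0.78) and Pnpla6 (0.51 and 0.47) were higher in males in both genotypes. Of all tested genes 44.3% were called higher in control males and 50.9% in KlKl males. After scaling Slc6a6 passed in KlKl and Pnpla6 in controls.

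Of 13 transcription factors and markers of the collecting duct 9 were tested and 0 passed between genotypes, with medians of 0.33 in males and 0.10 in females. Over all tested genes the medians were 0.18 and 0.10. After scaling those of the list were 0.13 and -0.002. Tfcp2l1, a factor of collecting duct cells, stood at 3.58 ± 0.217 TPM in male controls and 5.48 ± 0.717 in male KlKl (log2 difference 0.50, adjusted p = 0.073), and at 2.29 ± 0.191 and 2.7 ± 0.382 in females. Krt18 stood at 3.28 and 6.41 TPM in control and KlKl males and 3.78 and 5.16 in females, Krt8 at 9.18, 12.8, 7.73 and 7.84 and Gata2 at 1.12, 1.6, 1.37 and 1.55. Cdh16 stood at 27.7, 31.9, 19.8 and 21.3, and Calb1 at 10.6, 14.9, 10.7 and 11.8. Between the sexes Tfcp2l1 was higher in males (0.48 in controls and 0.81 in KlKl, passing after scaling in both). Gata3, a factor of principal cells, was lower in control males (-0.37, adjusted p = 0.00688, and -0.51 after scaling). Cdh16 (0.49 in controls, 0.56 in KlKl) and Krt8 (0.63 in KlKl) were higher in males on the deposited scale and did not pass after scaling. The scaled list had 1 higher and 3 lower in control males, and 1 and 1 in KlKl males.

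Summed markers of 2 other cell types did not overlap between genotypes within a sex, those of the thick ascending limb in males and of macrophages in females, and their part in the results above was not tested. After scaling the limb sums in males were 118 to 140 in controls against 145 to 183 in KlKl. The scaled macrophage sums in females were 25.4 to 29.9 against 33.8 to 40.8. Of single tested genes 11.6% were higher in male KlKl without overlap as deposited and 2.11% after scaling. In female KlKl these shares were 2.79% and 0.993%. They count single genes, whereas each sum adds all members of its list. On recovered reads 3 of the 5 limb markers had a positive KlKl difference in males, with a median of 0.04. For macrophage markers in females these were 7 of 8 and 0.26. In deposited TPM, 11 intercalated cell markers summed to 21.1 to 25.5 in male controls and 24.8 to 37.7 in male KlKl, and to 18.6 to 23.7 and 21.5 to 27.4 in females. The 5 thick ascending limb markers summed to 117 to 143 in male controls and 157 to 237 in male KlKl, and to 76.7 to 122 and 89.7 to 125 in females. The 8 macrophage markers summed to 22.6 to 31.0 in male controls and 26.3 to 60.7 in male KlKl, with the highest value in male KlKl 3, and to 19.8 to 27.0 and 32.6 to 34.4 in females. The 4 distal convoluted tubule markers summed to 20 to 28.7 in control males and 25.5 to 36.0 in KlKl males, and to 21.2 to 27.2 and 18.6 to 29.9 in females, and the 7 endothelial markers to 10.6 to 18, 14.3 to 17.3, 8.32 to 15.3 and 11.7 to 16.4. The 9 proximal tubule markers summed to 622 to 1119 in male KlKl and 879 to 1032 in female KlKl. The 6 papillary and transitional markers, uroplakins and basal keratins, summed to 1.65 to 2.97 in male controls and 2.4 to 3.01 in male KlKl, and to 1.45 to 2.45 and 1.22 to 2.6 in females. No list had a member under 20 reads in all libraries. None of these lists had a member called between genotypes, where the papillary list had 0 genes that passed the filter.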

How the data were processed

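RNA of 16 mouse kidneys was measured as TPM per gene. The authors deposited these TPM values in 1 table, made with Partek on build mm39 per the submitters' processing notes. The aligner, the annotation and any filter were not given in the sources used here. Tested on the values themselves, the deposited TPM equal reads plus 0.0001 divided by the full span of the gene with its introns, scaled to about 309450 per library. Reads recovered this way were whole, within 0.1, for 81.2% of values under 20 reads. Long introns therefore lower a gene's TPM.

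Groups come from the sample labels. Differences of log2(TPM + 1) were fitted with limma 3.58.1 in R 4.3.3, with a mean-variance trend, 4 group means and 12 residual degrees of freedom, on genes with TPM of 1 or more in at least 4 libraries. P-values were adjusted by Benjamini-Hochberg over all tested genes, threshold 0.05. Alternatives were a pseudocount of 0.1, no filter (TPM above 0.01 in any library), median-ratio scaling, limma voom on recovered reads, replicate block, name series, age, heterozygous controls only, libraries of the contrast only and left-out libraries. Exon lengths are from GENCODE on GRCm38, promoters from RefSeq on GRCm38.p6. The scripts were tested on simulated data.

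The 10 genes and all lists were chosen with earlier results of these data known. From each pathway list, up to 3 genes of highest mean TPM, up to 3 of smallest p for the mean KlKl effect and up to 4 passing genes per comparison are named, except 1 gene that is not reported here. Of 155 listed genes 1, Aqp12, was not matched. Depth was 8208543 to 20103585 reads, and counting error is only part of the spread between libraries.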

Additional observations from a re-analysis of the deposited data

Results flagged for a closer look

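Deposited TPM was checked in 40 groups of 4 libraries (10 genes in 4 groups). In 4 of them 1 library stood further from the others than Dixon's 95% critical value allows. Chance gives about 1 in 20 for independent groups, but all 40 groups come from the same 16 libraries. Male KlKl 3 was the high library in 3 of these 4 groups. Aqp1 stood at 117 TPM there against 69.9 to 72 in the other male KlKl libraries, Scnn1a at 6.04 against 3.36 to 3.69, and Scnn1b at 1.02 against 0.657 to 0.68. The remaining group was Avpr2 in female KlKl 4, at 4.27 TPM against 6.32 to 6.4 in the other female KlKl libraries. After median-ratio scaling male KlKl 3 stood at 90.1 against 51.6 to 64.4 for Aqp1 and at 4.66 against 2.46 to 3.4 for Scnn1a. For Scnn1b it stood at 0.788 against 0.487 to 0.607. Scaled Avpr2 in female KlKl 4 was 5.07 against 6.26 to 7.09. Dixon's rule was not applied to the scaled values.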

How the results depend on the processing

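No gene of the 10 passed between KlKl and control kidneys under the alternatives tried, except Hsd11b2 with age as a covariate (1 gene in males, 0.61, adjusted p = 0.0407, and 1 in the mean of both sexes, 0.33, adjusted p = 0.0487). The cause of the differences below was not tested. Of all genes in males, 8 passed as reported, 3 with a pseudocount of 0.1, without the filter, with median-ratio scaling or with the libraries of the contrast only, 2 with heterozygous controls only, 909 with age, and 24 without female control 3 and male KlKl 3 together. With scaling, name series gave 4 and age 1. In females 1 gene passed as reported, 2 without the filter, on recovered reads or without those 2 libraries (also when scaled), and 0 with the libraries of the contrast only. For the mean of both sexes 3 passed as reported, 1407 with age, 12 without the 2 libraries and 1 with scaling and age. For the difference between the sexes 0 passed as reported and 1 without the 2 libraries, scaled or not. Between control sexes 4236 genes passed as reported, 6430 without the filter, 6981 on recovered reads and 2211 with heterozygous controls only. Of the 10 genes 8 were tested in the filtered fits and all 10 on recovered reads. Of those tested 2 passed as reported (52.6% of all genes). With scaling 4 passed (49.7%), as on recovered reads (39.6%) and with scaling and name series (50.1%). With scaling and age 5 passed (48.7%), as with scaling without the 2 libraries (56.5%). Those last 2 fits also called Aqp2 lower in males, by -0.86 and -0.97 in controls (adjusted p = 0.0214 and 0.0243) and by -0.79 and -1.13 in KlKl (adjusted p = 0.0336 and 0.0127). Between KlKl sexes 4406 genes passed as reported and 7815 without the filter. The scaled fits with name series, with age or without the 2 libraries were chosen after seeing the data.

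Leaving out 1 library at a time gave 2 to 15 genes in males (15 without female control 3), 1 to 2 in females, 2 to 10 for the mean and 0 to 2 for the difference. Between control sexes it gave 3542 to 4379 genes (44.4% to 55.5% of those tested), and 1 to 3 of the 8 genes tested among the 10. Between KlKl sexes it gave 3742 to 4839 genes (46.6% to 60.4%), and 3 to 4 of those 8. These log2 differences changed sign in at least 1 such fit, with their range. For KlKl against control in males they were Aqp2 (-0.11 to 0.39) and Aqp3 (-0.06 to 0.29). In females they were Aqp3 (-0.09 to 0.32), Avpr2 (-0.10 to 0.12), Scnn1a (-0.06 to 0.24), Scnn1b (-0.08 to 0.02) and Hsd11b2 (-0.00 to 0.13). For the difference between the sexes they were Aqp1 (-0.19 to 0.19), Aqp2 (-0.65 to 0.09) and Aqp3 (-0.23 to 0.19). Between control sexes they were Aqp3 (-0.23 to 0.15), Aqp4 (-0.18 to 0.04), Scnn1b (-0.04 to 0.06) and Scnn1g (-0.02 to 0.07), and between KlKl sexes Aqp3 (-0.23 to 0.13) and Fxyd4 (-0.00 to 0.31). Of same-numbered pairs of libraries 5 of 24 correlated above 0.1, as did 15 of 72 others. The correlations ran from -0.22 to 0.22 and from -0.26 to 0.22. Such counts cannot exclude a pairing by replicate number, since they pool all combinations of groups. The replicate block gave 6 genes in males and changed 2 calls, Fxyd4 between control sexes (-0.48, adjusted p = 0.024) and Hsd11b2 between KlKl sexes (0.36, adjusted p = 0.0488).

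Other sign changes, 90 of them and none passing the test in either fit, are given by alternative. With median-ratio scaling, and with the same values when name series was added, KlKl against control was -0.14 for Aqp2 and -0.14 for Aqp3 in males, -0.12 for Avpr2 and -0.06 for Hsd11b2 in females, and -0.06 for Aqp3, -0.00 for Scnn1b and -0.07 for Fxyd4 in the mean. The difference for Aqp1 was -0.09, Scnn1g between control sexes was -0.08, and Fxyd4 and Hsd11b2 between KlKl sexes were -0.22 and -0.02. On recovered reads, males gave Aqp2 -0.17 and Aqp3 -0.17, and females Aqp3 -0.01, Avpr2 -0.17, Scnn1g -0.00 and Hsd11b2 -0.09. The mean gave Aqp3 -0.09, Avpr2 -0.02, Scnn1b -0.02 and Fxyd4 -0.10, the difference Aqp1 -0.11, control sexes Scnn1g -0.27, and KlKl sexes Scnn1g -0.04, Fxyd4 -0.33 and Hsd11b2 -0.09. Without the 2 libraries, males gave Aqp2 -0.04, and females Aqp3 -0.09, Avpr2 -0.10, Scnn1a -0.06 and Scnn1b 0.02. The mean gave Aqp2 -0.02 and Aqp3 -0.03, the difference Aqp1 -0.09 and Aqp3 0.12, control sexes Scnn1b 0.06 and Scnn1g -0.02, and KlKl sexes Fxyd4 -0.00. Scaled without them, males gave Aqp1 -0.05, Aqp2 -0.26 and Aqp3 -0.17, and females Aqp2 -0.10, Aqp3 -0.20, Avpr2 -0.20, Scnn1a -0.15, Scnn1g -0.04 and Hsd11b2 -0.07. The mean gave Aqp2 -0.18, Aqp3 -0.19, Avpr2 -0.02, Scnn1a -0.00 and Fxyd4 -0.03, the difference Aqp1 -0.19 and Aqp3 0.03, control sexes Scnn1a -0.05 and Scnn1g -0.14, and KlKl sexes Fxyd4 -0.34 and Hsd11b2 -0.10. Scaled with age, females gave Aqp3 -0.06, Avpr2 -0.13 and Hsd11b2 -0.06, the mean Aqp3 -0.01, Scnn1b -0.02 and Fxyd4 -0.11, and the difference Aqp1 -0.04, Aqp2 0.07 and Aqp3 0.09. Control sexes gave Scnn1g -0.10, and KlKl sexes Fxyd4 -0.28 and Hsd11b2 -0.03. With age alone, females gave Avpr2 -0.03, the difference Aqp2 0.26 and Aqp3 0.27, control sexes Scnn1b 0.01 and Scnn1g -0.00, and KlKl sexes Aqp3 0.08. With heterozygous controls only the difference was 0.15 for Aqp2 and 0.40 for Aqp3, and with a pseudocount of 0.1 Scnn1b between control sexes was 0.01.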
